A study of Mus musculus with 7 samples.

Results

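Mitosis and chromosome segregation genes were followed in the newborn liver of glycerol kinase knockout mice. The group comprised 51 genes, chosen by name for their roles as cyclins and mitotic kinases, chromosomal passengers, checkpoint and kinetochore proteins, motors, spindle and cytokinesis proteins and condensin subunits. A probe set was used where the platform annotation gave the gene as its only symbol, which held for 118 probe sets and 50 of the 51 genes, among 18193 genes with such a probe set in all. Ccnb1, the gene of cyclin B1, had none and is not analysed here.

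The 4 glycerol kinase knockout livers and the 3 wild type livers came from male C57BL/6J pups killed on day of life 1, and the wild type pups were littermates of knockout pups. Each liver was extracted alone and hybridised to its own Affymetrix Mouse 430 2.0 array, so 1 array stands for 1 animal. Glycerol kinase phosphorylates glycerol, and the submitters chose this day because knockout pups had no overt disease yet. The labels name the knockout by the enzyme and describe no allele or affected cell type, and the targeted transcript is not reported here, which leaves the labels of this group without that check.

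Cells that enter mitosis first make a large set of transcripts together in the G2 phase. Cyclins switch on the kinase Cdk1, condensin compacts the chromosomes, the spindle attaches to them at kinetochores under the watch of a checkpoint, and the anaphase promoting complex then releases the sister chromatids before the cell divides. In the liver around birth, both hepatocytes and the remaining blood-forming cells divide.

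In knockout livers these genes lay lower together, by small amounts. Counting each gene by its brightest probe set, 48 of 50 genes had a lower mean log2 level in knockout than in wild type livers, or 43 with arrays scaled to equal medians, and the median difference was -0.38 on the log2 scale. Among them 4 genes passed the threshold as lower and 0 as higher. The 4 were Ect2, which starts the cleavage furrow, Cenpf of the kinetochore, Cdca3, which takes part in the timing of mitotic entry, and Cdca8, the chromosomal passenger borealin. A further 3 genes, Hmmr, Racgap1 and Smc4, passed as lower by a probe set other than their brightest.

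Promoters of 6 of the 7 genes that passed by any probe set are shown first, because genes of this program often share 2 sequence elements near their start sites. The first is the cell cycle genes homology region, searched as TTTGAA on either strand, where the other strand reads TTCAAA, and as TTCGAA, which reads the same on both. The other is the CCAAT box, read as ATTGG from the opposite strand. The stretches run from 140 bases before to 30 bases after the annotated start on build GRCm38.p6, from RefSeq. Each is read 5′ to 3′ on the gene's own strand, with the matches to either motif in capitals. Spc25, the gene with the largest positive difference, is added for contrast.
Cdca3, chr6:124830036-124830205, plus strand: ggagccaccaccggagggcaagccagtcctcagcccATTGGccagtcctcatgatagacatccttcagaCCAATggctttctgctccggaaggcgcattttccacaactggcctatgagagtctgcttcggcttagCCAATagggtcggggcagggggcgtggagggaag
Cenpf, chr1:189688057-189688226, minus strand: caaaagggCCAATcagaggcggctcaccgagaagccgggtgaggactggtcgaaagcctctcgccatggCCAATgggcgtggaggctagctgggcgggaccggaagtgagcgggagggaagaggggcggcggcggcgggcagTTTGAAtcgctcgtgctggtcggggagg
Ect2, chr3:27153849-27154018, minus strand: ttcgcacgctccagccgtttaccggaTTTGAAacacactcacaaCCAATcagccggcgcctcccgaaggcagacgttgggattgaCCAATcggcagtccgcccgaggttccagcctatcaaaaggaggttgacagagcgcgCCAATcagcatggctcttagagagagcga
Cdca8, chr4:124936888-124937057, minus strand: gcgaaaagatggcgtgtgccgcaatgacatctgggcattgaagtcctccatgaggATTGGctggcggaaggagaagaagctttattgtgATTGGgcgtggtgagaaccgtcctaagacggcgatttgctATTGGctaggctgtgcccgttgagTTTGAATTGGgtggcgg
Hmmr, chr11:40733408-40733577, minus strand: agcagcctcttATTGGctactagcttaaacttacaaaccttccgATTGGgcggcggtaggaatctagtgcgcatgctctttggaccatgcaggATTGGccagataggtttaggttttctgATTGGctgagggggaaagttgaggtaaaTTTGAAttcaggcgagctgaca
Racgap1, chr15:99651627-99651796, minus strand: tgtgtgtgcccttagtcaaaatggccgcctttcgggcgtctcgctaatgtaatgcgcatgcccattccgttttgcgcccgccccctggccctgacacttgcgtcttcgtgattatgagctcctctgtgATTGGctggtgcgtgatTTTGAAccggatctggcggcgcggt
Spc25, chr2:69206184-69206353, minus strand: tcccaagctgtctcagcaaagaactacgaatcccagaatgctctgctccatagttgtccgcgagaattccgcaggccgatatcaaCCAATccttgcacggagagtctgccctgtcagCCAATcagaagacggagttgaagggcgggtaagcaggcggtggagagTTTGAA

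In Cenpf, Cdca8, Hmmr and Racgap1 a TTTGAA match began within the first bases after the annotated start, at positions 3, 14, 9 and 6, downstream of 1 or more CCAAT matches. Cdca8's match shares its last letter with an ATTGG match. The match of Cdca3 began at position 31, just past the stretch printed, and Ect2 held 1 at 114 bases before the start and 1 at position 40. Spc25 held the same pair of motifs, with TTTGAA at position 25.

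Promoter windows of 300 bases, from 250 before to 50 after the start, were found for 43 of the 51 genes by symbol. The homology region letters occurred in 34 of them (79.1%), against 19.4% of all 27025 genes of the table. CCAAT letters occurred in 32 (74.4%), against 37.9%, and both together in 29 (67.4%), against 7.7%. From 40 bases before the start to the end of the window, a range chosen after the matches had been seen, the homology region letters occurred in 30 of the 43 (69.8%), against 4.7% of all genes. The 34 tested genes with the homology region letters had a median log2 difference of -0.35, and 33 were lower in knockout. The 8 tested genes without them had a median of -0.46, and 7 were lower. A match is a description of letters, not a bound site, and no test was made.

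Intensities are the deposited linear values, scaled alike on every array. They were compared as log2(intensity + 16), on which fold changes of dim probe sets are understated, and an adjusted p under 0.05 over all 22518 tested probe sets counted as passing. All 50 genes had a tested probe set. The 4 of 50 genes that passed as lower (8%) stand beside 1.89% of all tested probe sets that passed as lower in knockout and 2.35% that passed as higher. At an unadjusted p under 0.05, 24 of the 50 genes were lower and 0 higher. Of all 11157 genes tested by their brightest probe set, 1142 were lower and 1373 higher at that limit. In 26 of the 50 genes (52%) every knockout array lay below every wild type array, against 11.8% of all tested probe sets, and in 0 genes did every knockout array lie above. The median difference of all tested probe sets was -0.03, and 54.2% of them were lower in knockout. Counted by gene, as the 50 were, 1.67% of the 11157 tested genes passed as lower. Groups did not overlap, with knockout lower, in 10.5%, the median difference was -0.001, and 50.1% were lower. By size, 13 genes lay under -0.5, 24 from -0.5 to -0.25 and 13 above -0.25. In whole liver, fewer dividing cells and less transcript per cell cannot be told apart.

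**Figure D1:**
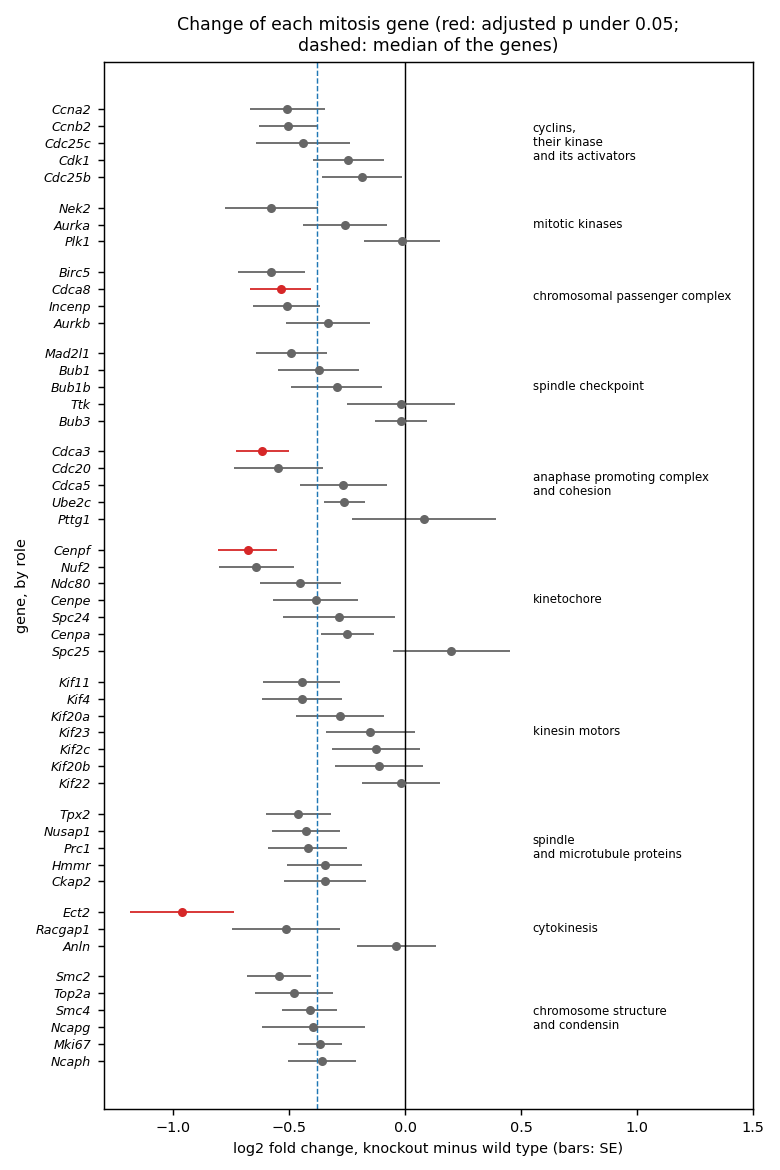
Log2 fold change of knockout over wild type for the 50 tested mitosis genes, by role, with the standard error as bars. Red points passed an adjusted p of 0.05, the dashed line is the median of -0.38, and of the 50 genes Pttg1 and Spc25 lie right of 0.

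The arrays did not contribute evenly. Knockout 1 held the lowest of the 7 intensities in 38 of the 50 genes, a knockout array did so in 48, and a wild type array held the highest in 43. The median deviation of the genes from their own means was -0.46 in knockout 1, against -0.04, -0.07 and -0.04 in knockout 2, 3 and 4, and 0.21, 0.19 and 0.26 in wild type 1, 2 and 3. No knockout array reached a wild type array by this measure, and knockout 1 stood apart from the other knockout arrays. The median SD of a gene was 0.25 over the 4 knockout arrays, 0.13 over knockout 2 to 4 and 0.10 over the wild type arrays, all on the log2 scale. Without knockout 1, 43 genes were lower and 7 higher, the median difference was -0.28, and Cdca3 and Cenpf passed. The count of genes whose groups did not overlap stayed at 26, and leaving out a knockout array could not have lowered it.

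The number of genes that passed rested on single arrays. It was 2 without knockout 1, 2 or 4, 8 without knockout 3 and 0 without any 1 of the wild type arrays. Over all tested probe sets 955 passed in either direction with all arrays. That count was 1006, 514, 930 and 375 without knockout 1 to 4, and 341, 288 and 127 without wild type 1 to 3. Cdca3 and Cenpf each passed in 4 of 7 such runs, those that left out a knockout array, with a highest adjusted p of 0.106 and 0.124 when a wild type array was left out. Cdca8 and Ect2 passed in 1 of the 7 runs, without knockout 3, with a highest adjusted p of 0.184 and 0.187. The direction was steadier, with 43 to 48 genes lower in knockout over the 7 runs.

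**Figure D2:**
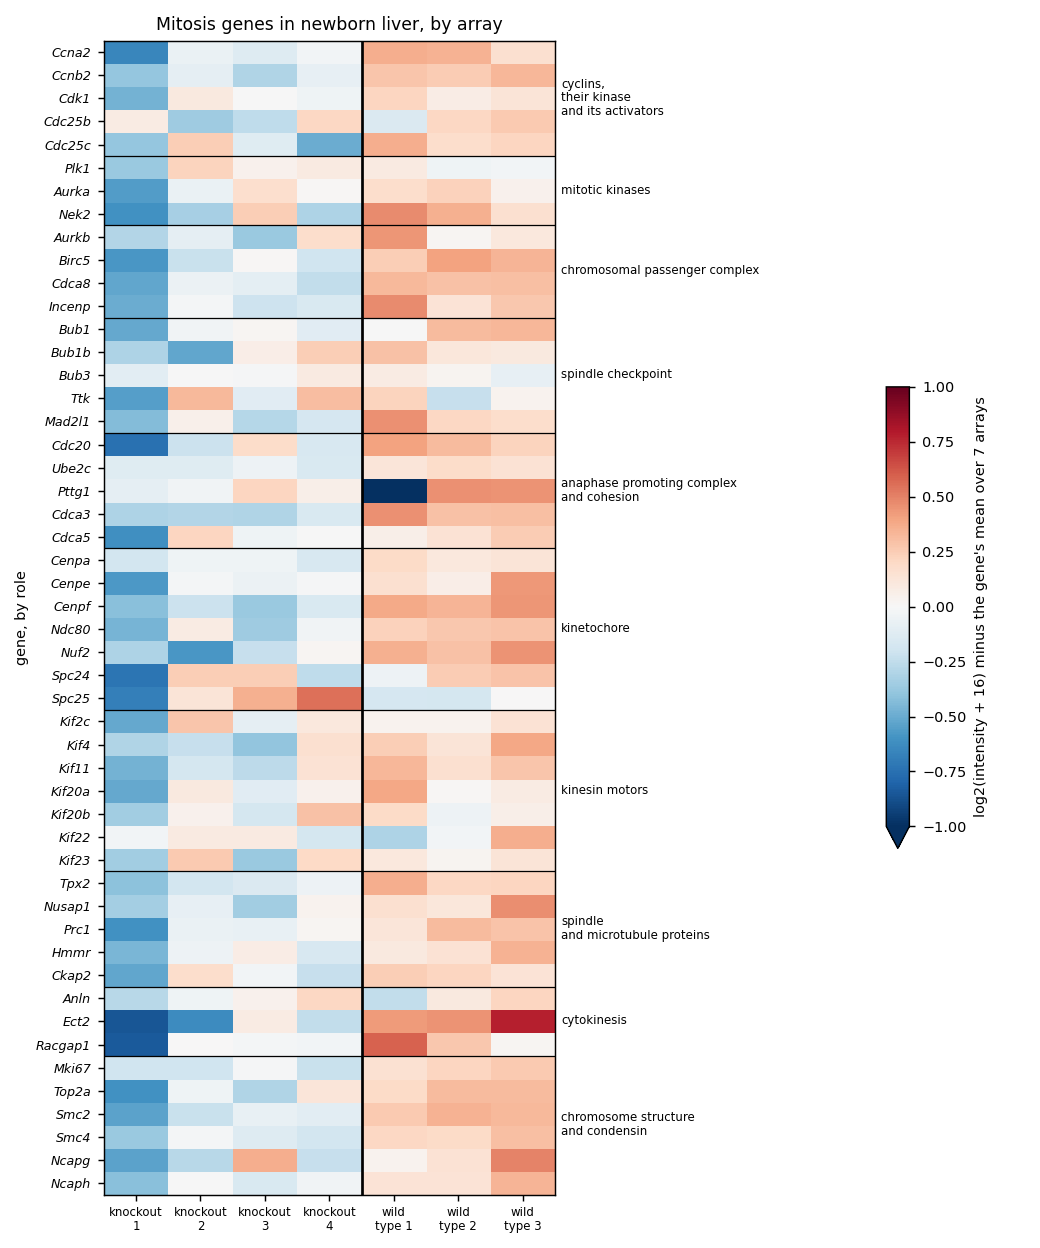
Deviation of each of 50 mitosis genes (rows, by role) from its mean over the 7 arrays (columns), as log2(intensity + 16), with blue for lower and red for higher. Knockout 1 is the bluest column, with a median of -0.46, the wild type columns are mostly red, and wild type 1 of Pttg1 lies beyond the end of the scale.

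Cyclins, with the kinase they bind and its activating phosphatases, begin the sequence. All 5 measured genes were lower in knockout, from -0.51 to -0.18 on the log2 scale, and 0 passed (2 at an unadjusted p under 0.05). In 2 (40%) the groups did not overlap, with knockout lower, beside 10.5% of all tested genes. Of all tested genes 1.67% passed as lower, and both shares stand beside the counts of each role below. Ccna2, cyclin A2, which acts from S phase into early mitosis, had intensities of 2939.9, 4420.1, 4232.7 and 4525.1 in knockout livers, against 5968.0, 5893.8 and 5155.1 in wild type livers. Every knockout array was below every wild type array, with knockout 1 far below the rest, and the difference was -0.51 ± 0.16 (SE, adjusted p = 0.105). Ccnb2, cyclin B2, a partner of Cdk1 at mitotic entry, had 2490.3, 3068.9, 2646.0 and 3081.5 in knockout livers, against 3952.1, 3908.0 and 4122.7 in wild type livers. Its groups were well apart, and at -0.50 ± 0.12 it just missed the threshold (adjusted p = 0.0510). Cdk1, Cdc25b and Cdc25c overlapped between groups, and Cdk1 itself was at -0.24 ± 0.15 (adjusted p = 0.381).

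The mitotic kinases Plk1, Aurka and Nek2 overlapped between the groups in all 3 cases and 0 passed (1 at an unadjusted p under 0.05), with a median of -0.26. Aurka, the Aurora kinase of the spindle poles, had 893.2, 1261.6, 1487.9 and 1333.7 in knockout livers, against 1494.7, 1550.0 and 1361.6 in wild type livers. Knockout 3 reached the wild type range and knockout 1 was well under it, for a difference of -0.26 ± 0.18 (adjusted p = 0.438). Nek2, which separates the centrosomes, had 734.3, 891.5, 1338.1 and 905.9 in knockout livers, against 1567.6, 1438.2 and 1260.0 in wild type livers. Again only knockout 3 lay within the wild type range, and the difference was -0.58 ± 0.20 (adjusted p = 0.130). Plk1, which acts at many steps of mitosis, was at -0.01 ± 0.16, and on the other side of 0 with arrays scaled to equal medians and without knockout 1 or wild type 1.

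The chromosomal passenger complex, which corrects wrong attachments at the centromere and later marks the site of cleavage, was lower in knockout in all 4 subunits, with a median of -0.52, and in 3 of them the groups did not overlap. Cdca8 passed. This subunit, borealin, had 3385.6, 4644.8, 4523.1 and 4096.6 in knockout livers, against 6088.9, 5943.3 and 5978.0 in wild type livers. The wild type arrays were nearly level and all knockout arrays lay under them, at 4163 ± 569 (SD, n = 4) against 6003 ± 76.1 (SD, n = 3). Cdca8 thus fell by 0.54 ± 0.13 on the log2 scale, or 31.1% (adjusted p = 0.0497), close to the threshold. Its 2 other tested probe sets were at -0.49 and -0.42, neither past the threshold. The call of Cdca8 was also lost at an offset of 1, with equal medians, with no filter on dim probe sets, without a trend in the variance and with the mean of its probe sets (adjusted p = 0.0503 to 0.1025). Birc5, the subunit survivin, had 3472.6, 4458.9, 5240.7 and 4527.6 in knockout livers, against 6160.7, 6893.6 and 6592.6 in wild type livers. Its groups did not overlap either, and the difference of -0.58 ± 0.14 had an adjusted p of 0.0528. Incenp, the scaffold, was at -0.51 and Aurkb, the kinase, at -0.33.

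Spindle checkpoint genes hold back anaphase until every chromosome is attached. All 5 were lower in knockout, from -0.49 to -0.02, although Bub3 and Ttk were higher with arrays scaled to equal medians. Of the 5, 0 passed (1 at an unadjusted p under 0.05). In 1 gene (20%) the groups did not overlap, with knockout lower, beside 10.5% of all tested genes. That gene was Mad2l1, whose protein binds and holds Cdc20, with 1410.7, 1981.6, 1563.2 and 1694.8 in knockout livers, against 2633.0, 2205.7 and 2160.3 in wild type livers. The difference was -0.49 ± 0.15 (adjusted p = 0.1002). Bub3, which brings the checkpoint kinase to the kinetochore, had 3898.3, 4167.3, 4145.8 and 4467.2 in knockout livers, against 4437.2, 4278.4 and 3947.1 in wild type livers. Its arrays interleaved fully, at -0.02 ± 0.11, and its sign turned with arrays scaled to equal medians and without knockout 1 or wild type 1. Bub1, Bub1b and Ttk overlapped between groups, at -0.37, -0.30 and -0.02, and the sign of Ttk also turned without knockout 1, knockout 3 or wild type 1.

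The anaphase promoting complex and its targets govern the exit from mitosis. Of 5 genes here 4 were lower in knockout, 1 passed, and in 3 (60%) the groups did not overlap, beside 10.5% of all tested genes. The gene that passed was Cdca3, an adaptor of protein breakdown at mitotic entry that the complex itself removes in G1, with 2645.5, 2668.6, 2656.4 and 2955.2 in knockout livers, against 4509.3, 4019.6 and 4052.1 in wild type livers. Both groups were tight and far apart, at 2731 ± 149 (SD, n = 4) against 4194 ± 274 (SD, n = 3). Cdca3 fell by 0.62 ± 0.12 on the log2 scale, or 34.7% (adjusted p = 0.0214). The call was lost with arrays scaled to equal medians (adjusted p = 0.0629), and with the mean of all its probe sets, of which the other two were too dim to be tested alone, the difference was -0.16 (adjusted p = 0.548). Cdc20, the activator of the complex, was at -0.55 ± 0.19 (adjusted p = 0.136), and Ube2c, its ubiquitin-conjugating enzyme, at -0.26 ± 0.09 (adjusted p = 0.127), both with groups that did not overlap. Cdca5, sororin, which stabilises cohesion, was at -0.27.

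Pttg1, securin, the inhibitor of separase that the complex destroys, departed from the pattern because of a single wild type liver. It had 11207.8, 11603.0, 13796.7 and 12370.9 in knockout livers, against 5741.5, 16390.8 and 16238.9 in wild type livers. Wild type 1 lay far under every other array and the other two wild type arrays lay above every knockout array. The difference was 0.08 ± 0.31 with all arrays, and -0.42 without wild type 1 (adjusted p = 0.117). The low value of wild type 1 recurred in both other tested probe sets of Pttg1, at 1021.4, against 3926.8 and 3663.8 in the other two wild type arrays, and at 130.2, against 451.8 and 340.4. Its origin was not tested.

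**Figure D3:**
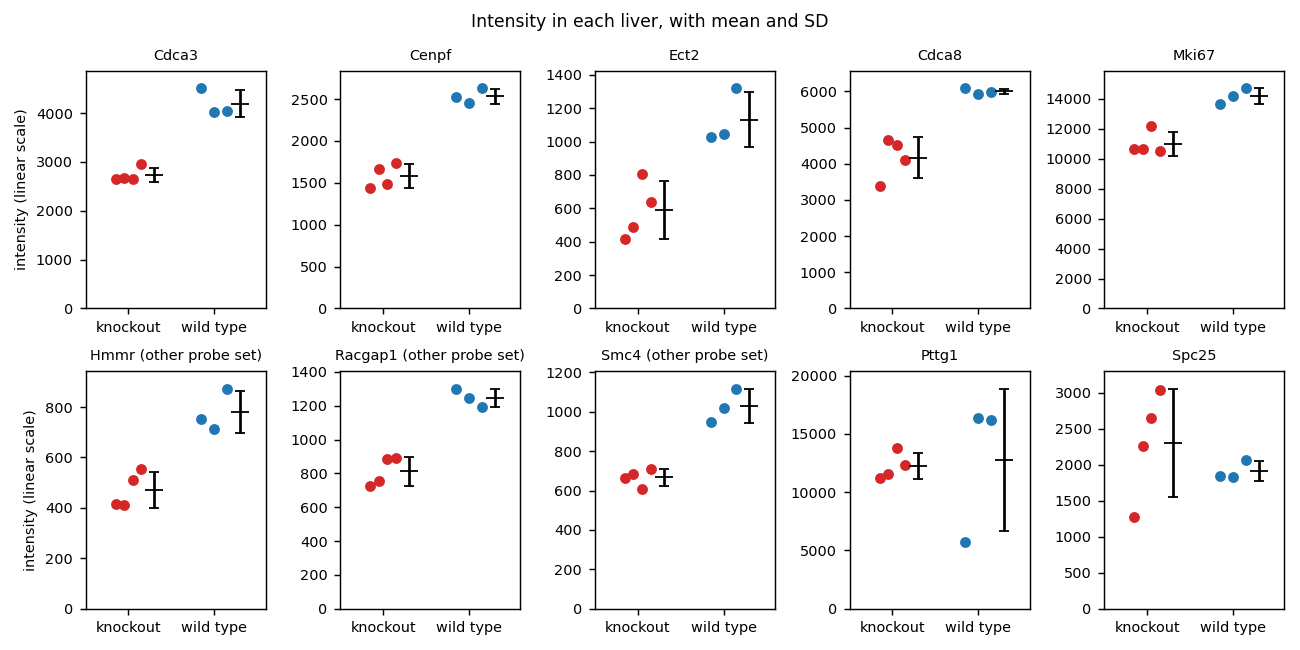
Intensity of 10 mitosis genes in each liver on a linear axis from 0, knockout in red and wild type in blue, with the mean and SD of each group as bars. In the genes of the first 8 panels no knockout array reaches a wild type array, whereas Pttg1 has wild type 1 at 5741.5 under all other arrays, and knockout 1 is the lowest array of Spc25.

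Kinetochore genes numbered 7, of which 6 were lower in knockout, 1 passed and 5 had groups that did not overlap. Cenpf, a large protein of the outer kinetochore that appears in G2, had 1440.8, 1662.0, 1489.4 and 1737.0 in knockout livers, against 2522.8, 2452.8 and 2629.0 in wild type livers. The groups were tight and did not overlap, at 1582 ± 140 (SD, n = 4) against 2535 ± 88.7 (SD, n = 3). Cenpf fell by 0.68 ± 0.13 on the log2 scale, or 37.5% (adjusted p = 0.0217). Its other tested probe set, a dim one with intensities from 116.6 to 177.2, was at -0.27 and overlapped between groups. With the mean of all its probe sets the difference of Cenpf was -0.42 and did not pass (adjusted p = 0.168). Cenpa, the histone variant that marks the centromere, had 2291.6, 2532.1, 2537.7 and 2334.4 in knockout livers, against 2979.2, 2814.7 and 2849.5 in wild type livers. The gap between the groups was small but complete, at -0.25 ± 0.12 (adjusted p = 0.244). The motor Cenpe was at -0.39.

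Of the 4 subunits of the Ndc80 complex, which binds microtubule ends, 3 were lower in knockout and 0 passed (2 at an unadjusted p under 0.05). Nuf2 was at -0.64 ± 0.16 (adjusted p = 0.0556) and Ndc80 at -0.45 ± 0.18, both with groups that did not overlap, while Spc24 was at -0.29 ± 0.24. Spc25 had 1280.2, 2263.3, 2651.5 and 3033.3 in knockout livers, against 1842.4, 1829.1 and 2072.2 in wild type livers. Knockout 1 was under the wild type arrays and knockout 2, 3 and 4 were above them, so that the difference of 0.20 ± 0.25 did not pass (adjusted p = 0.698). Without knockout 1 it was 0.46, and the second tested probe set of Spc25, a dim one, was at 0.52 ± 0.33 (adjusted p = 0.393).

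Kinesin motors, which slide and depolymerise microtubules or push on chromosome arms, were all 7 lower in knockout, or 6 with arrays scaled to equal medians, where Kif22 was higher. Their median was -0.15 and 0 passed (2 at an unadjusted p under 0.05). In 1 (14.3%) the groups did not overlap, with knockout lower, beside 10.5% of all tested genes. Kif11, which pushes the spindle poles apart, had 697.8, 859.6, 810.0 and 1076.0 in knockout livers, against 1229.9, 1088.0 and 1181.1 in wild type livers. Knockout 4 almost touched wild type 2, and the difference was -0.45 ± 0.17 (adjusted p = 0.156). Kif22, a motor on chromosome arms, had 2257.9, 2445.0, 2443.9 and 2028.4 in knockout livers, against 1850.2, 2258.5 and 2961.8 in wild type livers. The wild type arrays here spanned a wider range than the knockout arrays, at -0.02 ± 0.17, and the sign turned with arrays scaled to equal medians and without knockout 4 or wild type 3. A less bright probe set of Kif22 did not overlap between groups, at -0.53 ± 0.16 (adjusted p = 0.0965). Kif4 was at -0.45, Kif20a at -0.28, Kif23 at -0.15, Kif2c at -0.13 and Kif20b at -0.11, all with overlapping groups, and Kif2c turned to the other side of 0 without knockout 1 and with the mean of its probe sets.

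Spindle and microtubule proteins were close to each other in size, with all 5 from -0.46 to -0.35 and 4 with groups that did not overlap, although 0 passed by the brightest probe set (3 at an unadjusted p under 0.05). Nusap1, which bundles microtubules near chromosomes, had 2904.9, 3467.7, 2895.0 and 3775.1 in knockout livers, against 4104.9, 3986.4 and 5073.5 in wild type livers. The difference was -0.43 ± 0.15 (adjusted p = 0.123). Tpx2, which targets and activates Aurora A at the spindle, had 927.6, 1084.6, 1113.1 and 1193.3 in knockout livers, against 1594.6, 1430.9 and 1437.4 in wild type livers. All knockout arrays were clearly lower, at -0.46 ± 0.14 (adjusted p = 0.0946). Prc1, which bundles the midzone of the spindle, was at -0.42 and the spindle protein Ckap2 at -0.35.

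Hmmr, a receptor for hyaluronan that also works at spindle poles, was measured by 5 tested probe sets, all lower in knockout. The brightest had 910.6, 1209.4, 1321.9 and 1123.2 in knockout livers, against 1347.2, 1389.9 and 1604.7 in wild type livers, a narrow gap of -0.35 ± 0.16 (adjusted p = 0.242). The one that passed had 414.9, 410.3, 509.2 and 554.2 in knockout livers, against 751.6, 713.7 and 873.3 in wild type livers. By that probe set Hmmr fell by 0.71 ± 0.17 on the log2 scale, or 38.9% (adjusted p = 0.0449). The remaining tested probe sets were at -0.47, -0.37 and -0.14. None of these passed, and the groups overlapped in the last.

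Cytokinesis held the largest difference of all 50 genes. Ect2, the exchange factor that activates RhoA at the equator, had 415.4, 487.8, 808.9 and 639.1 in knockout livers, against 1029.5, 1044.8 and 1320.0 in wild type livers. Knockout arrays spread widely, with knockout 3 nearest to the wild type arrays, yet the groups did not overlap, at 588 ± 174 (SD, n = 4) against 1131 ± 163 (SD, n = 3). Ect2 fell by 0.96 ± 0.22 on the log2 scale, or 48.7% (adjusted p = 0.0442). Its call was lost with equal medians, with no filter on dim probe sets, without a trend in the variance and in the fit on means of probe sets (adjusted p = 0.0552 to 0.0748). Racgap1, which recruits Ect2 to the spindle midzone, had 557.4, 1017.4, 997.6 and 993.7 in knockout livers by its brightest probe set, against 1534.3, 1226.8 and 1024.2 in wild type livers. Knockout 2 and wild type 3 nearly met, and the difference of -0.51 ± 0.23 did not pass (adjusted p = 0.234). The other tested probe set of Racgap1 had 725.9, 752.8, 883.1 and 888.4 in knockout livers, against 1301.2, 1246.6 and 1194.9 in wild type livers. There the groups were well apart, and Racgap1 fell by 0.61 ± 0.14 on the log2 scale, or 34.7% (adjusted p = 0.0429). Anln, anillin, which links the ring to the membrane, interleaved between groups at -0.04 ± 0.17, and its sign turned with arrays scaled to equal medians and without knockout 1 or wild type 3.

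Chromosome structure and condensin genes were lower in knockout in all 6 cases, from -0.54 to -0.36, and 5 had groups that did not overlap, although 0 passed by the brightest probe set (5 at an unadjusted p under 0.05). Mki67, the surface protein of mitotic chromosomes widely used as a proliferation marker, had 10660.1, 10671.5, 12160.4 and 10496.4 in knockout livers, against 13630.3, 14208.4 and 14695.9 in wild type livers. The groups were narrow and apart, and the difference of -0.37 ± 0.10 had an adjusted p of 0.0606. Smc2, an ATPase subunit of condensin, had 2223.8, 2760.0, 3065.7 and 3002.2 in knockout livers, against 3868.0, 4118.4 and 4040.1 in wild type livers, at -0.54 ± 0.14 (adjusted p = 0.0560). Top2a, which untangles sister chromatids, was at -0.48, and the condensin I subunits Ncapg and Ncaph were at -0.40 and -0.36.

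Smc4, the other ATPase subunit of condensin, was lower in knockout by all 3 of its tested probe sets. Its brightest had 3945.7, 5050.7, 4679.8 and 4508.6 in knockout livers, against 5928.1, 5852.6 and 6319.5 in wild type livers, with a difference of -0.41 ± 0.12 (adjusted p = 0.0787). The next had 3634.0, 4810.4, 2536.6 and 3457.3 in knockout livers, against 5440.6, 6624.3 and 7493.2 in wild type livers, and the last had 664.0, 685.5, 609.3 and 707.9 in knockout livers, against 948.3, 1021.0 and 1117.5 in wild type livers. None of the 3 overlapped between groups. By the next brightest Smc4 fell by 0.87 ± 0.20 on the log2 scale (adjusted p = 0.0424), and by the last by 0.61 ± 0.14 (adjusted p = 0.0413).

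Second and further probe sets gave the same direction for most genes. Besides the brightest there were 44 tested probe sets, of which 40 were lower in knockout, 4 higher, 4 passed as lower and 0 as higher. Of all tested probe sets, 54.2% were lower, 1.89% passed as lower and 2.35% as higher. Of 29 genes with several tested probe sets, 3 had both signs, namely Bub1b (-0.30 and 0.01), Kif2c and Pttg1, and none of these probe sets passed. Sizes differed more than directions, as in Cdc20, where 3 probe sets were at -0.55, -0.30 and -1.10 and the last was dim, with intensities from 26.4 to 265.1. Of the 50 brightest probe sets 26 were of a type whose probes match several transcripts. These may be transcripts of the same gene or, for part of the 26, of close relatives whose signal may be mixed in.

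**Figure D4:**
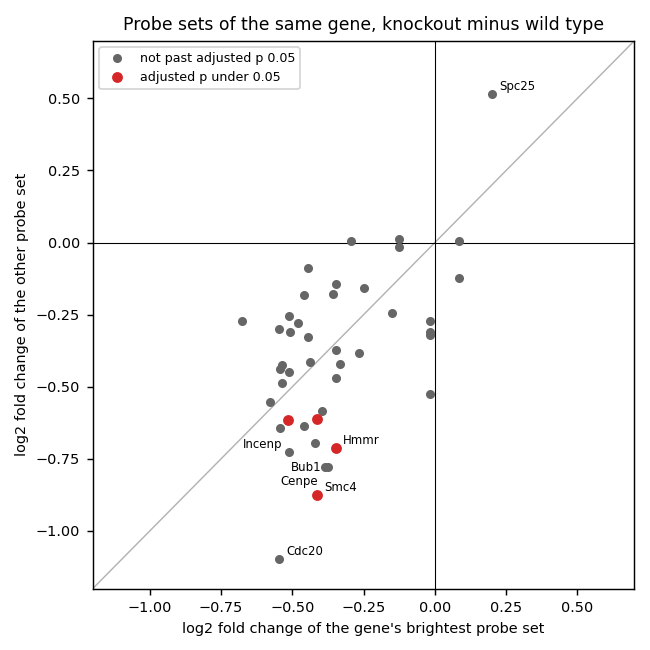
Log2 fold change of each of 44 further probe sets against that of the brightest probe set of the same gene, knockout over wild type, with the line of equality in grey. The 4 probe sets that passed are red, from -0.87 to -0.61, 40 of 44 lie under 0, and Spc25 is positive on both axes.

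Other genes of mitosis outside the 51 were set beside them from a separate list of 105, of which 100 were tested. In knockout livers 90 were lower and 10 higher (77 and 23 with arrays scaled to equal medians), and the median was -0.23. Beside 1.67% of all tested genes, 8 of the 100 (8%) passed as lower and 0 as higher. Between 1 and 8 of them passed when an array was left out, namely 5 without knockout 1, 3 without knockout 2, 8 without knockout 3, 4 without knockout 4 and 3, 2 and 1 without wild type 1, 2 and 3 in turn. Mad1l1, the checkpoint partner of Mad2l1, had the largest fall, with 893.2, 818.5, 847.1 and 931.0 in knockout livers, against 1842.6, 2095.9 and 1845.6 in wild type livers. Both groups were tight, and Mad1l1 fell by 1.13 ± 0.13 on the log2 scale (adjusted p = 0.0031). The others that passed were Depdc1a, needed for mitotic progression, at -1.12, the phosphatase Cdkn3 at -1.11, the centromere proteins Cenpk at -0.998 and Cenpw at -0.69, the cohesin subunit Rad21 at -0.82, the GTPase-activating protein Arhgap11a at -0.73 and Sgo1, the shugoshin that protects centromeric cohesion, at -0.62. The largest positive differences were those of Pds5b, a regulator of cohesin, at 0.39 (adjusted p = 0.155) and of the kinetochore protein Zwint at 0.32 (adjusted p = 0.303), and neither passed.

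Genes of S phase, the neighbouring phase of the cycle, leaned the same way. Of 37 tested genes 34 were lower in knockout and 3 higher (32 and 5 with arrays scaled to equal medians), with a median of -0.31. Beside 1.67% of all tested genes, 2 of the 37 (5.41%) passed as lower. They were Ccne2, cyclin E2, at -0.93 ± 0.22 (adjusted p = 0.0427) and Rrm2, a subunit of ribonucleotide reductase, at -0.73 ± 0.17 (adjusted p = 0.0420). At least 1 of these calls was lost whichever array was left out, and both were lost without knockout 2, wild type 2 or wild type 3. The largest positive differences, of the polymerase subunits Pola1 and Pold1, were both 0.03. Unlike the 50 mitosis genes, the S phase genes overlapped between groups by their median deviation, which was -0.50, 0.09, -0.04 and -0.09 in knockout 1 to 4, against 0.08, 0.28 and 0.18 in wild type 1 to 3. Knockout 2 reached wild type 1, and knockout 1 was again far below the rest. By summed intensity, however, the S phase genes did not overlap between groups. Their sums ran from 68229 to 100912 in knockout livers, against 107127 to 120262 in wild type livers.

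Markers of red cell precursors, which divide in the newborn liver, were lower beside the mitosis genes. All 17 tested of 20 were lower in knockout (15 with arrays scaled to equal medians), with a median of -0.39. Beside 1.67% of all tested genes, 3 of the 17 (17.6%) passed as lower, namely Slc4a1, Rhag and Trim10. From 0 to 5 passed when 1 array was left out, with 0 without knockout 4, wild type 2 or wild type 3, 1 without knockout 1, knockout 2 or wild type 1 and 5 without knockout 3. With all arrays, 0 passed with equal medians, with no filter on dim probe sets or without a trend in the variance, and 1 when each gene's probe sets were averaged. Their summed intensity ran from 97931 to 114776 in knockout livers, against 122772 to 141492 in wild type livers. Their median deviation was -0.17, -0.13, 0.11 and -0.25 in knockout 1 to 4, against 0.09, 0.29 and 0.29 in wild type 1 to 3. Knockout 3 therefore reached wild type 1, and knockout 1 did not stand apart as it did in the mitosis genes. The 8 tested of 10 hepatocyte markers summed to between 206592 and 265525 in knockout livers, against 213021 to 237887 in wild type livers, and the 14 tested of 18 leukocyte markers to between 70290 and 96766, against 83576 to 107269. The sums of these last lists overlapped between groups, and 0 of their genes passed, with 1 hepatocyte and 2 leukocyte markers at an unadjusted p under 0.05. No marker of these lists with a named probe set was at 0 in all arrays, and the part of any cell type in the difference of the mitosis genes was not tested.

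**Figure D5:**
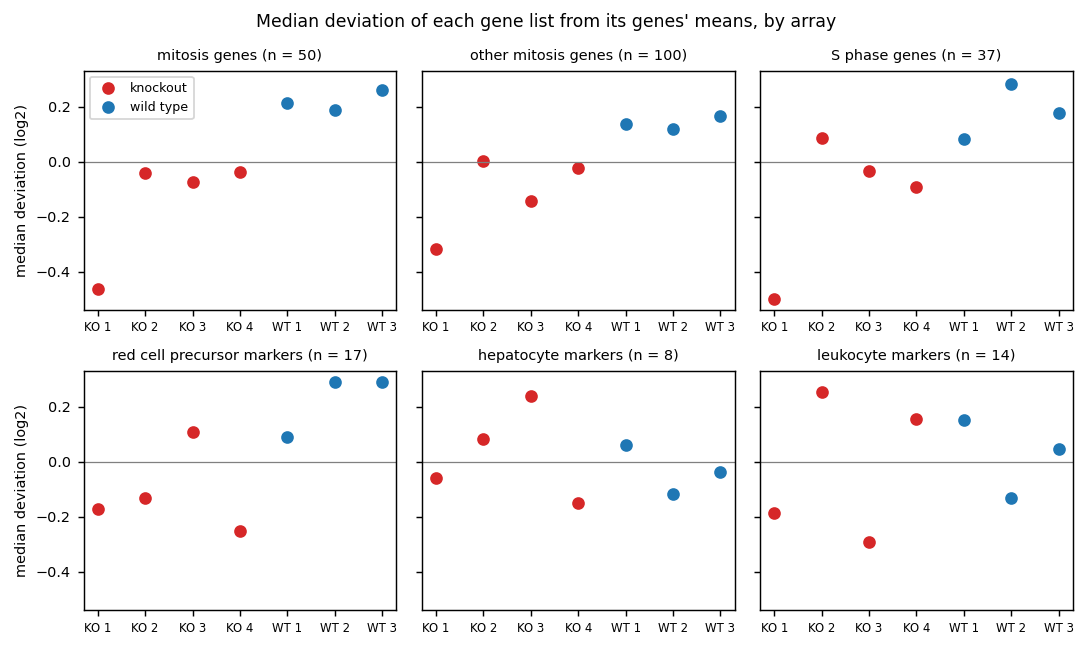
Median deviation, on the log2 scale, of the genes of 6 lists from their own means, for each array, with knockout (KO) in red left of wild type (WT) in blue. The 50 mitosis genes, with -0.46 in knockout 1 and at least 0.19 in the wild type arrays, and the 100 other mitosis genes separate the groups, whereas in the S phase genes and the 3 marker lists the groups overlap.

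Signs of array quality differed between arrays. Knockout 4 had the lowest median intensity, at 92.7, and the largest share of probe sets under an intensity of 50, at 39.4%. Each array had been scaled to the same trimmed mean of 500.003, and arrays correlated at r of 0.93 to 0.985. Knockout 3 had the highest 3' to 5' ratios of the actin, Gapdh and transferrin receptor control probe sets, at 1.45, 1.065 and 11.06, a sign of less complete transcripts, while knockout 1, the lowest array in most mitosis genes, was within the range of the others at 1.211, 0.9035 and 7.311. The part of RNA quality in the differences was not tested.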

How the data were processed

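Liver RNA of 4 knockout and 3 wild type pups was measured with 1 array each. Sample titles gave the groups and the replicate numbers. The authors deposited 1 linear intensity per probe set and array, made with GCOS per the submitters' processing notes. How probes were summarised is not given in the sources read. Array medians differed by less than 0.2 on the log2 scale, so the deposited intensities were not scaled again, and a change of total RNA cannot be seen.

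After 64 controls were left out of 45101 probe sets, those with a mean log2(intensity + 16) above the median were kept, which left 22518. Knockout and wild type were compared with limma 3.58.1 in R 4.3.3 (lmFit, eBayes with a trend), without covariates, with Benjamini-Hochberg adjustment over all of them. Errors of differences are standard errors from limma. The step was tested on simulated data. Genes were named from the platform annotation, and each gene was counted by its brightest probe set. The precision is limited by the 7 arrays.

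The members and lists were chosen with earlier results of these data known. Values in every array are given for the brightest member of each of 10 roles, the member of smallest p in each, and every member with a probe set that passed. Of the other mitosis and S phase genes, those that passed and the largest differences in each direction are named. Other members named were chosen after their values were seen. In all, 18 alternatives were tried, including each array left out and replicate numbers as a block. Same-numbered livers showed little shared deviation (r = 0.0866, -0.0562 and 0.0553). With so few arrays these values cannot tell whether the numbers mark litters or batches. Plots were drawn with matplotlib 3.10.9.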

Additional observations from a re-analysis of the deposited data

Results flagged for a closer look

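Among the 50 genes, 4 (8%) had 1 knockout array far from the other 3. The limit used is one that about 1 in 20 sets of independent, normally distributed values would pass. The genes share the same 4 arrays and are not independent, so the 8% cannot be weighed against it. Knockout 1 was the low array in 2 of the 4 genes, with 557.4 for Racgap1, against 993.7 to 1017.4 in the other knockout arrays, and 564.5 for Cenpe, against 814.3 to 843.7. Knockout 4 was high for Cdca3, at 2955.2 against 2645.5 to 2668.6 in the other knockout arrays, and knockout 3 was high for Mki67, at 12160.4 against 10496.4 to 10671.5. In all 4 genes the far array still lay under every wild type array. Wild type groups of 3 arrays were not examined in this way, so the low wild type 1 value of Pttg1 is not among them.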

How the results depend on the processing

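The direction of the mitosis genes held in every alternative run. Between 43 and 48 of 50 genes were lower in knockout (37 of 38 by probe sets not shared between transcripts, 47 of 49 by the mean of all probe sets), and the median difference ran from -0.42 to -0.28. Which genes passed depended on the settings. Runs with an array left out followed only brightest probe sets, so the calls of Hmmr, Racgap1 and Smc4 by others were not tried there. The number of mitosis genes that passed was 4, and 1 with arrays scaled to equal medians, with replicate block, with probe sets not shared between transcripts or with the mean of all probe sets, 2 with no filter or without a trend, 8 with quantile normalization or a mean intensity above 200, 12 at an adjusted p under 0.1, and 0 to 8 with 1 array left out. For the other mitosis genes it was 8, and 3 with equal medians or no filter, 4 without a trend, 5 with replicate block, 2 with the mean of probe sets, 17 at an adjusted p under 0.1 and 1 to 8 with 1 array left out. For S phase genes it was 2, and 0 with equal medians, no filter, no trend or the mean of probe sets, 1 with probe sets not shared, 4 at an adjusted p under 0.1 and 0 to 1 with 1 array left out. Fewer arrays give less power, yet over all tested probe sets 1006 passed without knockout 1, against 955 with all arrays. Other causes were not tested. With replicate block Cdca3 and Cenpf had an adjusted p of 0.0756 and 0.0716, Cdca8 one of 0.137, and 0 red cell markers passed. Whether the numbers pair the livers is not known, so the calls under the block cannot be weighed against the others.

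Bub3 turned to 0.053 with equal medians and ran from -0.065 to 0.019 with 1 array left out. Kif22 turned to 0.054 with equal medians and 0.041 with replicate block, and ran from -0.18 to 0.16 with 1 array left out. Pttg1 turned to -0.12 by a probe set not shared and to -0.011 by the mean of its probe sets, and ran from -0.42 to 0.34 with 1 array left out. With equal medians 7 mitosis genes were higher in knockout, Plk1, Bub3, Ttk, Pttg1, Spc25, Kif22 and Anln, and the median of all probe sets was 0.03, against -0.03 as deposited. The dim probe sets and 7 arrays limit what small differences can show.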
